A study of Homo sapiens with 24 samples.

Results

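The EGF receptor family and its ligands were described across A549 cells, a human lung carcinoma line, and Huh7 cells, a human hepatocellular carcinoma line. The members were 9 genes of the 14585 rows of a table of estimated counts, found by matching Ensembl gene IDs to symbols: the receptors EGFR, ERBB2 and ERBB3, the ligands AREG, EREG, HBEGF, TGFA and BTC, and the receptor inhibitor ERRFI1. Total RNA freed of ribosomal RNA was sequenced from 24 libraries, with 3 replicates in each of 8 groups. Cells of each line, given as WT in the labels, served as control or received an extract of Pulsatilla chinensis, Bupleurum chinense or Polyporus umbellatus, named here P. chinensis, B. chinense and P. umbellatus. The comparison asked how each extract changed gene expression in a lung and in a liver cancer line. The extracts were made with ethanol from dried herbs and hold many compounds. The dose and time of the sequenced cells, and whether the control cells received the solvent, are not given in the sources used here. Each line stands for 1 cancer of its organ, and nothing says that replicates came from separate cultures, so p-values measure the spread between these libraries, which may be technical.

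The libraries held between 6803648 and 17175519 counts in A549 cells and between 7182412 and 24345364 in Huh7 cells. In Huh7 cells the control libraries (16455596 to 24345364) and those with P. chinensis (13259116 to 24340065) were deeper than those with B. chinense (9526105 to 11546054) and P. umbellatus (7182412 to 10328682). Replicate 2 of Huh7 cells with P. umbellatus stood apart. Between it and the other replicates of its group, the median over genes of the chi-square statistic was 13.3 and 17.6 times the value that sampling noise gives, against 2.74 to 5.36 for all other pairs of replicates. It is kept. Changes of members with P. umbellatus against control in that line, and some counts of calls, are also given without it. Most other values of Huh7 cells with that extract, such as group means, shares, interactions and single pathway genes, are given with it only. The lines carried their labels' markers in part: the 7 hepatocyte markers summed to 12164 to 23235 CPM, the count relative to the TMM-scaled library total, in Huh7 and to 2.42 to 9.62 CPM in A549 libraries. KRT7, a simple-epithelium keratin, was at 1553 to 1774 CPM in A549 and at most 0.123 CPM in Huh7 libraries. KRT8 and KRT18, listed with it, were high in both lines. KRT8 was at 3305.5 to 3851.8 CPM in A549 and 1342.1 to 3672.7 CPM in Huh7 libraries. KRT18 was at 1846.2 to 2420.2 CPM and 1038.6 to 1721.2 CPM. Of the alveolar markers, NKX2-1, SFTPC and NAPSA have no row used here and SFTPB was no higher in A549 (1.05 to 2.75 CPM) than in Huh7 libraries (2.12 to 5.16 CPM). The 6 of 7 listed fibroblast and leukocyte markers with a row summed to 23.8 to 38.0 CPM in A549 and 70.0 to 85.1 CPM in Huh7 libraries, and their part in the results was not tested.

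The receptors of this family sit in the cell membrane and signal as pairs. EGFR binds AREG, EREG, HBEGF, TGFA and BTC, whereas ERBB2 binds no known ligand and ERBB3 binds neuregulins and has a weak kinase, so both act mainly as partners. The ligands are made as membrane proteins and cut free by proteases such as ADAM17, and an active receptor signals through the RAS to ERK cascade and the PI3K to AKT arm. ERRFI1, also named MIG6, is induced by that signal and blocks the EGFR kinase. In lung cancer EGFR is a drug target, and in liver the receptor takes part in regeneration.

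AREG, EREG and HBEGF, the ligands whose responses set the lines apart or joined them, are shown with the 250 bases before their RefSeq start sites (GRCh38.p14), each written along its gene from 5′ to 3′. AREG and EREG are neighbours on the plus strand of chromosome 4, at chr4:74444886-74445135 and chr4:74364895-74365144, and HBEGF lies on the minus strand of chromosome 5, at chr5:140346604-140346853. Capitals mark a CRE (TGACGTCA), a TATA box (TATAAA) and a GC box (GGGCGG), searched on both strands.
AREG: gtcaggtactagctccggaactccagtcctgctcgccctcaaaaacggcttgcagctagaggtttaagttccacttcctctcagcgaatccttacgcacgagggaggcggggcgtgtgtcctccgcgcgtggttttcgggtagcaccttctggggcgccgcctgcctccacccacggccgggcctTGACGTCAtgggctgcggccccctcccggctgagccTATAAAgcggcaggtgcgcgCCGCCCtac
EREG: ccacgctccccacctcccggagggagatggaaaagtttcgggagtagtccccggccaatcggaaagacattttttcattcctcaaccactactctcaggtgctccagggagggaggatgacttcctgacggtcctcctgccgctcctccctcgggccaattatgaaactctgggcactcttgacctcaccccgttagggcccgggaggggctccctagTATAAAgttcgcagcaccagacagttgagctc
HBEGF: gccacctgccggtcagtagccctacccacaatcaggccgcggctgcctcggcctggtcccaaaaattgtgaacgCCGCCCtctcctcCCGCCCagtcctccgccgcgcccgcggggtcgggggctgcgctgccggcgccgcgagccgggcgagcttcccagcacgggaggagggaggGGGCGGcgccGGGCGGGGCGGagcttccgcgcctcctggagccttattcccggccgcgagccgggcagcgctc
The AREG window held a CRE whose first base lay 65 bases before the start, a TATA box at 29 and a GC box at 9. EREG had a TATA box at 32 and neither of the other motifs. HBEGF had no CRE and no TATA box but 5 GC boxes, at 176, 163, 73, 63 and 58 bases before the start, of which the last 2 overlap by 1 base. Of 35116 windows of this length before annotated starts, 1.65% held the CRE, 10.7% the TATA box and 42.6% the GC box. The AP-1 motif (TGANTCA), which 6.57% of windows held, was in none of these 3. RefSeq windows were found for 8 of the 9 members.

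In A549 cells all 3 extracts raised EGFR and the ligands EREG, HBEGF and TGFA and lowered ERBB3 and ERRFI1, while AREG passed the test with none of them. In Huh7 cells P. chinensis and P. umbellatus raised AREG, EREG and HBEGF, lowered ERBB3 and raised ERRFI1. A gene counted as changed when the adjusted p of edgeR's quasi-likelihood test was below 0.05. With P. chinensis in A549 cells, 4 members rose and 2 fell of 9 tested, where 32.8% of all genes tested were changed. With B. chinense, 5 rose and 2 fell of 9, where 28.1% of all genes were changed, and with P. umbellatus 5 rose and 2 fell of 9, where 28.2% were. The median log2 fold change of the 9 members was 0.50, 0.36 and 0.55 for the 3 extracts in that order, against 0.014, -0.002 and -0.012 over all genes tested. Of the 8 members tested in Huh7 cells, 5 rose and 1 fell with P. chinensis, where 20.9% of all genes were changed, and 6 rose and 2 fell with P. umbellatus, where 37.0% were. Their medians were 0.55 and 0.61, against 0.011 and 0.032 over all genes tested. With B. chinense in Huh7 cells edgeR called 0 of 8, where 1.28% of all genes were changed. There, 3 members had an unadjusted p below 0.05, namely ERBB3, AREG and ERRFI1, DESeq2 called 1 member (and 3.71% of all genes) and limma's voom 4 (and 8.86%). Without P. umbellatus replicate 2 edgeR called 3 members, and the share of all genes called rose from 1.28% to 6.54%. The 3 comparisons of a line share its 3 control libraries. The members were chosen with earlier results of these data known, so their counts and medians beside those of all genes are a description.

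**Figure D1:**
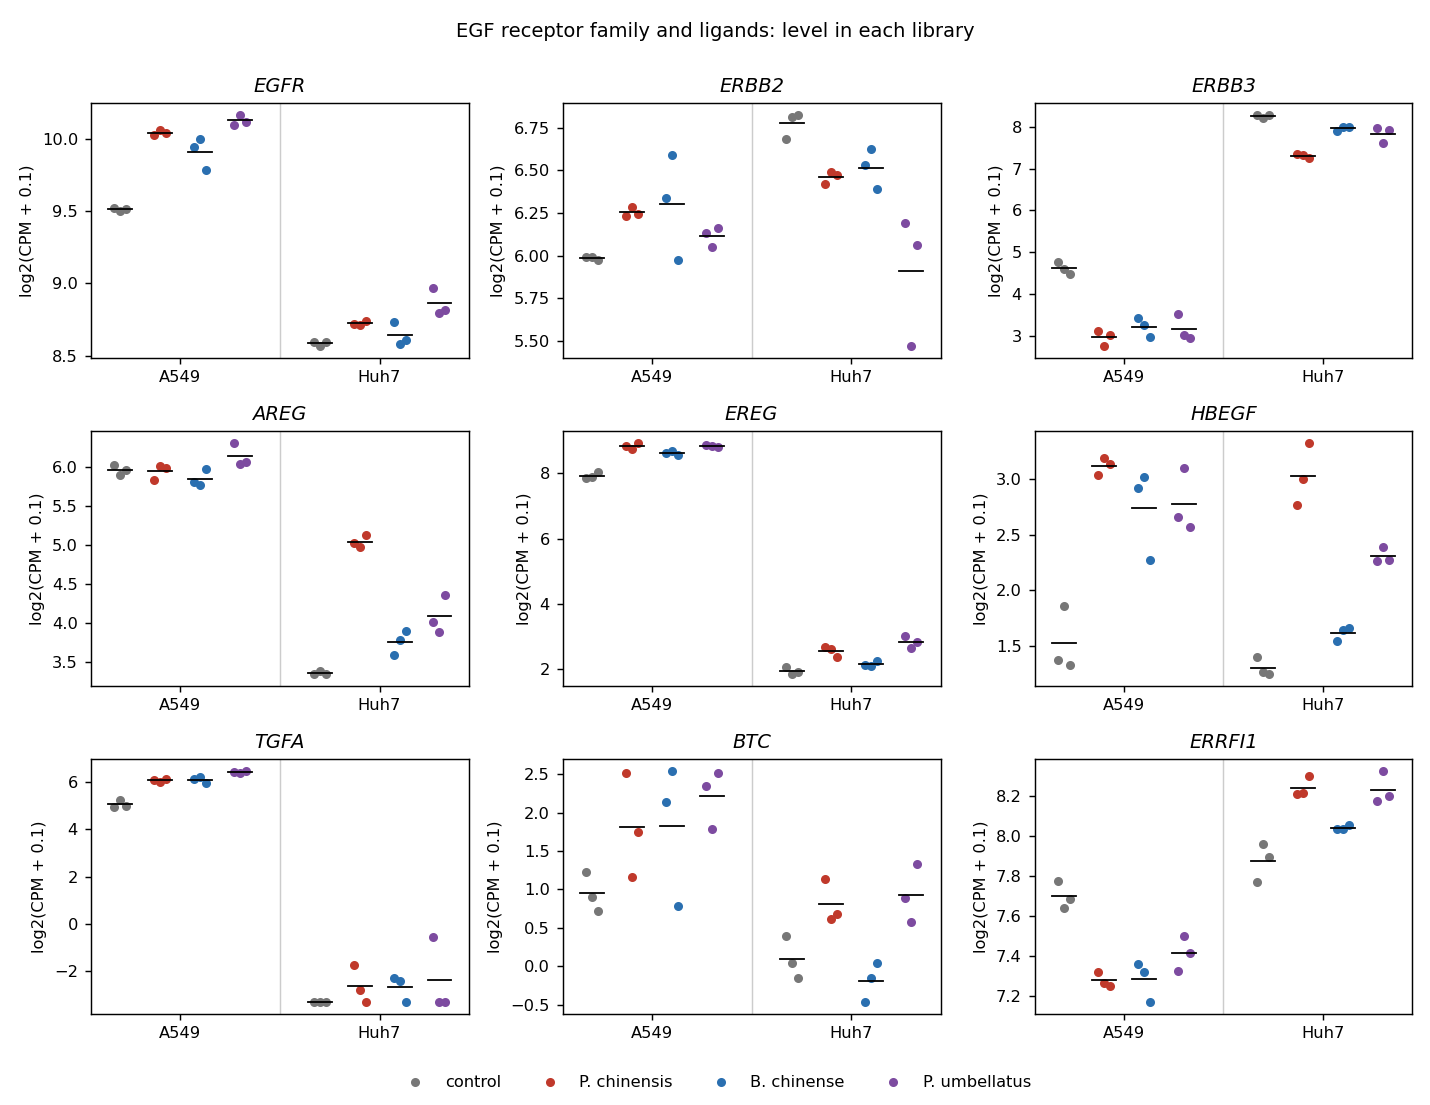
Each point is 1 library, placed by its log2(CPM + 0.1), with A549 libraries on the left and Huh7 libraries on the right of each panel, coloured by treatment, and a bar at the mean of the 3 replicates. ERBB3 points with each extract lie below the control points in both lines, EREG and TGFA are high in A549 libraries only, and all AREG points of treated Huh7 cells lie above those of their controls.

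EGFR, on chromosome 7 (55019017 to 55211628, plus strand), binds the products of AREG, EREG, HBEGF, TGFA and BTC. Its level in the A549 control libraries was 735, 724 and 732 CPM. P. chinensis gave 1041, 1066 and 1052 CPM, B. chinense 982, 1020.2 and 882 CPM and P. umbellatus 1095, 1148 and 1111 CPM. Every treated A549 library lay above every control library. EGFR rose by 0.50 ± 0.05 (adjusted p = 1.24e-06) on the log2 scale with P. chinensis, by 0.36 ± 0.05 (adjusted p = 4.45e-05) with B. chinense and by 0.55 ± 0.05 (adjusted p = 7.4e-07) with P. umbellatus. Here and below, ± after a log2 fold change gives the standard error that the test implies. The Huh7 control libraries held 386, 379 and 386 CPM of EGFR. They were followed by 422, 419 and 426 CPM with P. chinensis, 426, 383 and 389 CPM with B. chinense and 501, 444 and 451 CPM with P. umbellatus. The P. chinensis and P. umbellatus libraries all exceeded the controls, whereas 1 of the B. chinense libraries lay among them. The rise was 0.33 ± 0.06 (adjusted p = 0.00307) with P. umbellatus, where a fit of the 2 groups alone gave an adjusted p of 0.0607, and 0.20 ± 0.06 (adjusted p = 0.048) with P. chinensis. The latter call was lost in 9 of 12 fits that each left out 1 Huh7 library (adjusted p 0.0681 to 0.178 in those), with RLE normalization (0.0568) and with no filter (0.0537), and its value with B. chinense was 0.08 ± 0.06 (adjusted p = 0.736). An antisense gene, EGFR-AS1, shares 186 exonic bases with EGFR, and whether the counting used strand is not given in the sources used here.

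ERBB3, on chromosome 12 (56076799 to 56103505, plus strand), fell in both lines. Its level was 27.1, 23.9 and 22.3 CPM in the A549 control libraries and 8.59, 6.63 and 7.99 CPM with P. chinensis. B. chinense gave 10.6, 9.48 and 7.67 CPM and P. umbellatus 11.4, 7.94 and 7.63 CPM. The highest treated A549 library stood below the lowest control library in each comparison. ERBB3 was 3.23-fold lower than control with P. chinensis, a log2 fold change of -1.69 ± 0.18 (adjusted p = 6.54e-06). The log2 fold change was -1.44 ± 0.18 (adjusted p = 4.27e-05) with B. chinense and -1.49 ± 0.18 (adjusted p = 2.57e-05) with P. umbellatus. Huh7 cells started far higher, at 311, 297 and 314 CPM in the control libraries. P. chinensis gave 162, 159.7 and 154 CPM, B. chinense 239, 257 and 255 CPM and P. umbellatus 251, 198 and 243 CPM. All 9 treated Huh7 libraries lay below the controls, and the P. chinensis libraries lay below the rest. ERBB3 fell with P. chinensis, at -0.90 ± 0.08 (adjusted p = 1.5e-05), and with P. umbellatus, at -0.36 ± 0.08 (adjusted p = 0.00686). For P. umbellatus the change was -0.26 (adjusted p = 0.00259) without replicate 2, and the call was lost in a fit of the 2 groups alone (adjusted p = 0.0625). The value with B. chinense was -0.28 ± 0.08 (adjusted p = 0.155), and -0.28 (adjusted p = 0.00439) without P. umbellatus replicate 2. In bulk RNA, fewer cells that express a gene and less of its RNA per cell cannot be told apart. A second annotated gene shares 31 exonic bases with ERBB3 on the same strand.

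ERBB2, on chromosome 17 (39687914 to 39730426, plus strand), gave calls in A549 cells that depended on the setting, and fell with P. umbellatus in Huh7 cells. The A549 libraries held 63.6, 63.6 and 62.6 CPM as control, 75.2, 77.8 and 75.7 CPM with P. chinensis and 80.9, 96.2 and 62.7 CPM with B. chinense. P. umbellatus gave 70.2, 66.1 and 71.5 CPM. The B. chinense replicates spread widely, with the third at the control level. ERBB2 rose by 0.30 ± 0.11 (adjusted p = 0.0497) with B. chinense, a call lost in 11 of 12 fits that each left out 1 A549 library, and without B. chinense replicate 2 its adjusted p was 0.276. The call was also lost in a fit of the 2 groups alone (0.099). With P. chinensis, whose libraries did not overlap the controls, the value was 0.24 ± 0.11 (adjusted p = 0.108). It passed the test under upper quartile normalization (adjusted p = 0.0405), in a fit of the 2 groups alone (0.019), and without B. chinense replicate 2 (0.0357) or 3 (0.0215). With P. umbellatus the value was 0.07 ± 0.11 (adjusted p = 0.694). Huh7 control libraries were at 103, 113 and 113 CPM, and P. umbellatus libraries at 72.9, 44.2 and 66.9 CPM. ERBB2 fell with P. umbellatus, at -0.78 ± 0.14 (adjusted p = 0.00233), and the change was -0.60 (adjusted p = 0.000257) without replicate 2, the lowest library. With P. chinensis (85.7, 89.8 and 88.8 CPM) the value was -0.26 ± 0.14 (adjusted p = 0.216), and -0.26 (adjusted p = 0.0104) without P. umbellatus replicate 2. With B. chinense (92.4, 98.8 and 83.9 CPM) it was -0.24 ± 0.14 (adjusted p = 0.546), though all libraries of both treatments lay below the controls. MIEN1, which is in the table, shares 163 exonic bases with ERBB2 on the opposite strand.

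Among the ligands, AREG, encoding amphiregulin, an EGFR ligand known to be made by epithelial cells after injury, divided the lines. AREG lies on chromosome 4 (74445136 to 74455005, plus strand), behind the window with the CRE shown above. Huh7 control libraries held 10.1, 10.3 and 10.1 CPM. P. chinensis raised this to 32.4, 31.3 and 34.9 CPM. The libraries with P. umbellatus held 16.1, 14.7 and 20.5 CPM and those with B. chinense 11.9, 13.6 and 14.8 CPM. Every treated Huh7 library exceeded every control library, and the P. chinensis libraries stood above all others. AREG was 3.36-fold the control with P. chinensis, a rise by 1.75 ± 0.13 (adjusted p = 2.88e-06) on the log2 scale, and rose by 0.81 ± 0.13 (adjusted p = 0.00148) with P. umbellatus. With B. chinense its value was 0.43 ± 0.13 (adjusted p = 0.174), and 0.43 (adjusted p = 0.0466) without P. umbellatus replicate 2. In A549 control libraries AREG stood at 65.2, 59.6 and 62.5 CPM. The libraries were at 57.0, 64.4 and 63.2 CPM with P. chinensis, 55.7, 54.3 and 62.7 CPM with B. chinense and 79.3, 65.9 and 66.9 CPM with P. umbellatus. The P. chinensis and B. chinense libraries overlapped the controls, and the lowest P. umbellatus library lay less than 1 CPM above the highest control library. The values of -0.05 ± 0.09 (adjusted p = 0.726), -0.16 ± 0.09 (adjusted p = 0.225) and 0.12 ± 0.09 (adjusted p = 0.339) for these extracts did not pass the test in any of 20 alternatives each.

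EREG encodes epiregulin, a ligand that keeps EGFR signalling for longer. It lies on chromosome 4 (74365145 to 74388749, plus strand) next to AREG, and unlike AREG passed the test with each extract in A549 cells. A549 control libraries held 232, 236 and 262 CPM. P. chinensis gave 459, 434 and 492 CPM, B. chinense 395, 414 and 379 CPM and P. umbellatus 469.8, 464 and 449 CPM. The treated and control libraries of A549 cells did not overlap. EREG rose by 0.89 ± 0.06 (adjusted p = 3.13e-08) with P. chinensis, by 0.66 ± 0.06 (adjusted p = 1.16e-06) with B. chinense and by 0.86 ± 0.06 (adjusted p = 9.8e-08) with P. umbellatus. Huh7 cells held far less, 4.09, 3.48 and 3.61 CPM in the control libraries. P. chinensis gave 6.21, 5.99 and 5.02 CPM, B. chinense 4.26, 4.16 and 4.67 CPM and P. umbellatus 7.97, 6.11 and 7.04 CPM. All 9 treated Huh7 libraries lay above the highest control library, by little with B. chinense. EREG rose by 0.97 ± 0.17 (adjusted p = 0.00212) with P. umbellatus and by 0.68 ± 0.17 (adjusted p = 0.0117) with P. chinensis. The P. chinensis call was lost without P. chinensis replicate 1 (adjusted p = 0.0617), P. chinensis replicate 2 (0.0517) or control replicate 2 (0.0545). With B. chinense the value was 0.25 ± 0.17 (adjusted p = 0.656).

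HBEGF, which encodes the ligand that is also the diphtheria toxin receptor, lies on chromosome 5 (140332843 to 140346603, minus strand) and was low in both lines. Its level in A549 control libraries was 2.49, 3.53 and 2.41 CPM. The treated A549 libraries held 8.11, 9.08 and 8.74 CPM with P. chinensis, 7.49, 8.04 and 4.72 CPM with B. chinense and 6.24, 8.52 and 5.85 CPM with P. umbellatus. Again no treated library reached down to the controls. HBEGF was 2.99-fold the control with P. chinensis, a rise by 1.58 ± 0.25 (adjusted p = 0.000222), and rose by 1.23 ± 0.26 (adjusted p = 0.00243) with B. chinense and by 1.22 ± 0.25 (adjusted p = 0.00221) with P. umbellatus. In Huh7 libraries it was at 2.53, 2.299 and 2.27 CPM in control and 6.71, 7.92 and 9.97 CPM with P. chinensis. B. chinense gave 2.81, 3.01 and 3.06 CPM and P. umbellatus 4.69, 5.14 and 4.73 CPM. The 4 groups did not overlap, with P. chinensis highest, then P. umbellatus, B. chinense and control. HBEGF was 3.59-fold the control with P. chinensis, a rise by 1.84 ± 0.18 (adjusted p = 2.55e-05), and rose by 1.09 ± 0.19 (adjusted p = 0.00211) with P. umbellatus. Its value with B. chinense was 0.34 ± 0.19 (adjusted p = 0.537).

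TGFA encodes transforming growth factor alpha, a classical EGFR ligand of carcinoma cells, and lies on chromosome 2 (70447284 to 70554193, minus strand). A549 control libraries held 30.9, 38.0 and 31.3 CPM. P. chinensis gave 67.6, 64.9 and 70.4 CPM, B. chinense 69.3, 74.0 and 62.2 CPM and P. umbellatus 85.8, 84.2 and 89.3 CPM. Treated libraries all exceeded the controls, and those with P. umbellatus stood highest. TGFA rose by 0.99 ± 0.09 (adjusted p = 8.99e-07) with P. chinensis, by 1.0 ± 0.09 (adjusted p = 1.46e-06) with B. chinense and by 1.31 ± 0.09 (adjusted p = 9.81e-08) with P. umbellatus. In Huh7 cells TGFA was barely detected. It had 0 counts in 7 of 12 libraries, all 3 controls among them, and at most 5 counts in the others, so it was not tested in that line. Against the 3 counts per library that a count of 0 allows, a mean of 0.155 CPM, the A549 control level was at least 216-fold higher. This bound covers counting error only.

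BTC, the gene for betacellulin, which can bind both EGFR and ERBB4, is on chromosome 4 (74744759 to 74794523, minus strand) and was the lowest of the member ligands in A549 cells. Its A549 libraries held 2.24, 1.77 and 1.54 CPM as control and 5.002, 3.35 and 5.60 CPM with P. umbellatus. P. chinensis gave 5.60, 2.14 and 3.25 CPM and B. chinense 4.31, 5.73 and 1.62 CPM. The P. umbellatus libraries all exceeded the controls, while P. chinensis and B. chinense each had a library among them, and the B. chinense replicates spread most. BTC rose by 1.27 ± 0.44 (adjusted p = 0.0445) with P. umbellatus, a call lost in 7 of 12 fits that each left out 1 A549 library, with an adjusted p of up to 0.129 without control replicate 3. That call was also lost with voom (adjusted p = 0.0613) and with the replicate number as a block (0.0515). The values of BTC were 0.95 ± 0.45 (adjusted p = 0.1251) with P. chinensis and 1.06 ± 0.45 (adjusted p = 0.0977) with B. chinense, where the adjusted p was 0.0216 without B. chinense replicate 3. Huh7 libraries held 1.21, 0.932 and 0.797 CPM in control, 2.10, 1.44 and 1.51 CPM with P. chinensis and 0.623, 0.797 and 0.934 CPM with B. chinense. With P. umbellatus they held 1.76, 1.39 and 2.41 CPM. The P. chinensis and P. umbellatus libraries lay above the controls and those with B. chinense overlapped them. BTC rose by 0.99 ± 0.33 (adjusted p = 0.0339) with P. umbellatus, a call lost in 5 of 12 such fits (adjusted p up to 0.118 without P. umbellatus replicate 3). The call was also lost in a fit of only the groups compared (adjusted p = 0.109) and with the replicate number as a block (0.0511). The other values of BTC in Huh7 cells were 0.84 ± 0.31 (adjusted p = 0.0761) with P. chinensis and -0.29 ± 0.35 (adjusted p = 0.839) with B. chinense.

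ERRFI1, the inhibitor, lies on chromosome 1 (8004404 to 8026309, minus strand) and moved in opposite directions in the 2 lines. Its level in A549 control libraries was 219, 199 and 205 CPM. It was 159.6, 154 and 152 CPM with P. chinensis, 164, 159 and 144 CPM with B. chinense and 160.0, 181 and 170.3 CPM with P. umbellatus. No treated A549 library reached the lowest control library. ERRFI1 fell with each extract, with a log2 fold change of -0.45 ± 0.06 (adjusted p = 4.86e-05) for P. chinensis, -0.45 ± 0.06 (adjusted p = 7.52e-05) for B. chinense and -0.35 ± 0.06 (adjusted p = 0.000584) for P. umbellatus. Huh7 control libraries held 218, 249 and 238 CPM. P. chinensis gave 296, 297 and 315 CPM, B. chinense 262, 262 and 266 CPM and P. umbellatus 288, 321 and 293 CPM. All treated Huh7 libraries lay above the highest control library. ERRFI1 rose by 0.42 ± 0.07 (adjusted p = 0.000815) with P. chinensis and by 0.41 ± 0.07 (adjusted p = 0.00145) with P. umbellatus. With B. chinense the value was 0.18 ± 0.07 (adjusted p = 0.264), and 0.18 (adjusted p = 0.0421) without P. umbellatus replicate 2.

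Without replicate 2 of P. umbellatus in Huh7 cells, all 8 members still passed the test with that extract, where 32.8% of all genes did. The log2 fold change was then 0.90 (adjusted p = 0.000312) for AREG, 1.06 (adjusted p = 0.00101) for EREG and 1.04 (adjusted p = 0.00301) for HBEGF. It was 0.36 (adjusted p = 0.00066) for EGFR, 1.14 (adjusted p = 0.0278) for BTC and 0.36 (adjusted p = 0.000475) for ERRFI1.

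**Figure D2:**
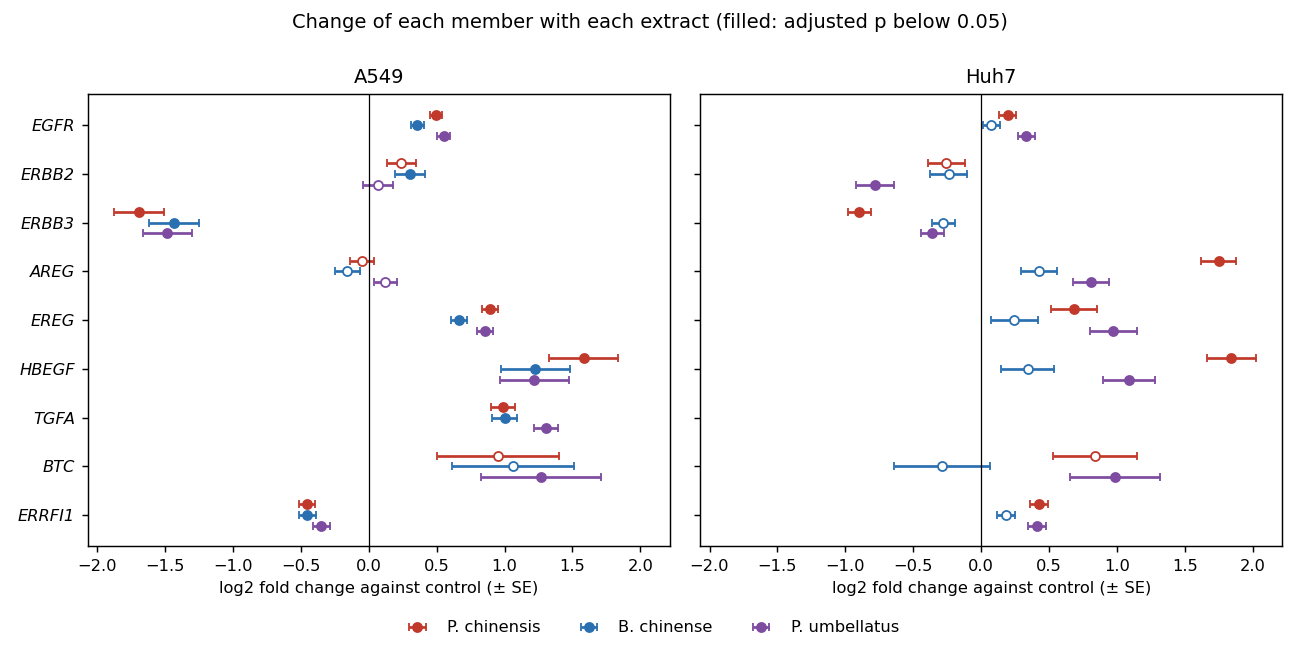
Points give the log2 fold change of each member against the control of its line and bars its standard error, for 3 replicates a group, with filled points where the adjusted p was below 0.05. In A549 cells EGFR, EREG, HBEGF and TGFA lie right of 0 and ERBB3 and ERRFI1 left of 0 for each extract, and in Huh7 cells AREG and HBEGF with P. chinensis lie furthest right, at 1.75 and 1.84.

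The control groups of the lines differed in 7 of 9 members, of which 4 were higher and 3 lower in A549 cells, where 70.7% of all genes were changed. On the log2 scale EGFR was higher in A549 cells by 0.93 ± 0.06 (adjusted p = 1.36e-12), AREG by 2.62 ± 0.11 (adjusted p = 3.3e-15) and EREG by 6.02 ± 0.09 (adjusted p = 8.84e-23), and TGFA is given above as a bound. ERBB3 was lower, at -3.66 ± 0.12 (adjusted p = 1.93e-17), and so was ERBB2, at -0.79 ± 0.13 (adjusted p = 1.38e-05). ERRFI1 was also called lower, at -0.18 ± 0.06 (adjusted p = 0.0161), but not under DESeq2 (adjusted p = 0.118), either other normalization, a fit of the 2 groups alone, or without Huh7 control replicate 2 (0.0927), A549 control replicate 2 (0.075) or Huh7 P. umbellatus replicate 2 (0.109). HBEGF was at 0.25 ± 0.23 (adjusted p = 0.335) and BTC at 0.90 ± 0.42 (adjusted p = 0.0588), and BTC passed the test under DESeq2 (adjusted p = 0.0433), both other normalizations, a fit of the 2 groups alone, and without Huh7 P. umbellatus replicate 2, A549 P. chinensis replicates 1 or 2, or A549 B. chinense replicates 2 or 3 (0.0302 to 0.0493).

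Levels of different genes were set side by side as CPM per kilobase of each gene's canonical transcript, as means ± SD of 3 libraries. In A549 control cells EGFR was at 73.7 ± 0.600, ERBB2 at 13.9 ± 0.121 and ERBB3 at 4.36 ± 0.436. EGFR thus made up 80.2% of the summed level of the 3 receptors, and 85.4%, 83.6% and 87.0% with the extracts, in the order P. chinensis, B. chinense, P. umbellatus. The order was another in Huh7 control cells, with ERBB3 at 54.7 ± 1.68, EGFR at 38.8 ± 0.433 and ERBB2 at 24.1 ± 1.28. Before division by length EGFR was the higher of these there, at a mean of 384 CPM against 307 CPM for ERBB3. Their order thus rests on the canonical lengths, 9905 bases for EGFR and 5615 for ERBB3. Which transcripts the cells used was not tested. ERBB3 held 46.6% of the receptor level there and 31.3% with P. chinensis, where EGFR came first with 47.3%. P. umbellatus also placed EGFR first, with 46.5% against 40.4% for ERBB3. With B. chinense the mean shares were 42.5% for ERBB3 and 38.4% for EGFR, with ERBB3 first in 2 of 3 libraries and EGFR in replicate 1. ERRFI1 was at 67.1 ± 3.31 in A549 and 75.8 ± 4.99 in Huh7 control cells. Neighbours in the order of all 9 members differed by more than their summed SDs in both control groups, with the exception of EREG and AREG in A549 cells. These SDs hold the spread between libraries only and no error in the lengths used.

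Of the member ligands in A549 control cells, EREG was at 52.8 ± 3.52 CPM per kilobase and AREG at 50.6 ± 2.29, followed by TGFA at 8.11 ± 0.970, HBEGF at 1.19 ± 0.266 and BTC at 0.697 ± 0.135. EREG held 46.5% and AREG 44.6% of the summed ligand level in control cells. With the extracts, in the same order, EREG held 58.4%, 55.9% and 54.7%, and AREG 29.1%, 30.4% and 31.3%. Huh7 control cells had AREG at 8.24 ± 0.107, HBEGF at 1.002 ± 0.0603, EREG at 0.808 ± 0.0702 and BTC at 0.370 ± 0.0800. AREG held 79.1% of the summed level of the member ligands in control and 83.2%, 81.2% and 76.0% with the extracts. The summed ligand level in Huh7 libraries was 10.2 to 10.6 CPM per kilobase in control, 30.6 to 34.2 with P. chinensis, 12.1 to 14.6 with B. chinense and 16.0 to 21.0 with P. umbellatus. In A549 libraries it was 111 to 117 in control and 167 to 179.9, 151 to 157 and 178 to 191 with the same extracts. The shares and sums cover the member ligands only, without EGF and NRG1, and are given as a description. Without division by length, mean EGF in Huh7 control cells was 28.0 CPM against 10.2 CPM for AREG. Mean NRG1 in A549 control cells was 313 CPM against 244 CPM for EREG.

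**Figure D3:**
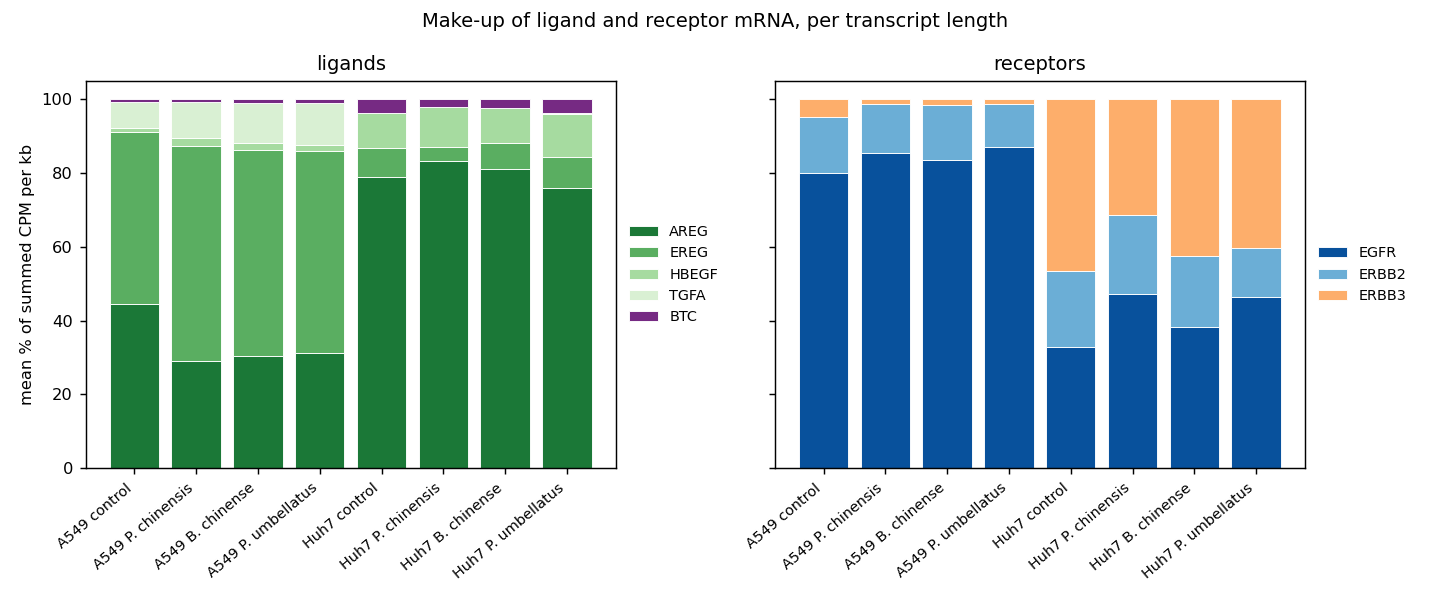
Stacked bars give each gene's mean share, in percent over 3 libraries, of the summed CPM per kilobase of the 5 ligands (left) and the 3 receptors (right), per line and treatment. Of the ligands shown, EREG takes the largest share in treated A549 cells and AREG in Huh7 cells, and the ERBB3 share falls from 46.6% in control to 31.3% with P. chinensis in Huh7 cells.

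The difference of a response between A549 and Huh7 cells was fitted as an interaction term, A549 minus Huh7, on the 12924 genes tested in both. TGFA could not enter. With P. chinensis 2 members responded more positively and 3 more negatively in A549 cells, of 8 tested, where 19.6% of all genes were changed. The widest gap was that of AREG, at -1.75 ± 0.15 (adjusted p = 2.53e-08). ERRFI1 followed at -0.82 ± 0.09 (adjusted p = 1.1e-06) and ERBB3 at -0.74 ± 0.17 (adjusted p = 0.00381). EGFR was at 0.35 ± 0.08 (adjusted p = 0.00236). ERBB2 was at 0.55 ± 0.18 (adjusted p = 0.039), a call lost in 15 of 24 fits that each left out 1 library and under upper quartile normalization (adjusted p = 0.0534). With P. umbellatus 2 members were higher and 3 lower of 8, where 34.4% of all genes were changed: ERBB2 at 0.93 ± 0.19 (adjusted p = 0.000768), EGFR at 0.30 ± 0.08 (adjusted p = 0.00548), ERBB3 at -1.01 ± 0.17 (adjusted p = 0.00012), AREG at -0.61 ± 0.15 (adjusted p = 0.00423) and ERRFI1 at -0.68 ± 0.09 (adjusted p = 1.55e-05). The EGFR call was lost in a fit of only the groups compared (adjusted p = 0.0583), and the ERBB2 value ranged from 0.75 to 1.10 over 32 alternatives. Without P. umbellatus replicate 2 of Huh7 cells, 5 members passed the test with P. umbellatus, where 30.7% of all genes did.

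For B. chinense 3 members were higher and 3 lower in A549 cells of 8 tested, where 11.6% of all genes were changed. ERBB3 was at -1.11 ± 0.17 (adjusted p = 0.000148) and ERRFI1 at -0.60 ± 0.09 (adjusted p = 0.000129). EGFR stood at 0.32 ± 0.08 (adjusted p = 0.00824). AREG was at -0.54 ± 0.15 (adjusted p = 0.0243), a call lost without any one of Huh7 B. chinense replicate 3, A549 B. chinense replicates 1 or 2, or A549 control replicate 1 (adjusted p 0.0555 to 0.0668). ERBB2, at 0.58 ± 0.19 (adjusted p = 0.0449), lost its call in 17 of 24 fits that left out 1 library, and EREG, at 0.46 ± 0.14 (adjusted p = 0.0362), in 10 of 24, with DESeq2 (adjusted p = 0.0666) and with voom (0.165). The count was 3 without any one of A549 B. chinense replicates 1 or 2, A549 control replicate 1 or Huh7 B. chinense replicate 3, where 8.92% to 9.69% of all genes were changed. HBEGF, at 0.93 ± 0.32 (adjusted p = 0.0658), passed the test without A549 B. chinense replicate 3 (adjusted p = 0.0208) or A549 control replicate 2 (0.0374). For HBEGF with the other extracts the interaction was -0.21 ± 0.30 (adjusted p = 0.705) and 0.22 ± 0.32 (adjusted p = 0.63), and for EREG 0.25 ± 0.13 (adjusted p = 0.182) and -0.04 ± 0.13 (adjusted p = 0.863), in the order P. chinensis, P. umbellatus.

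**Figure D4:**
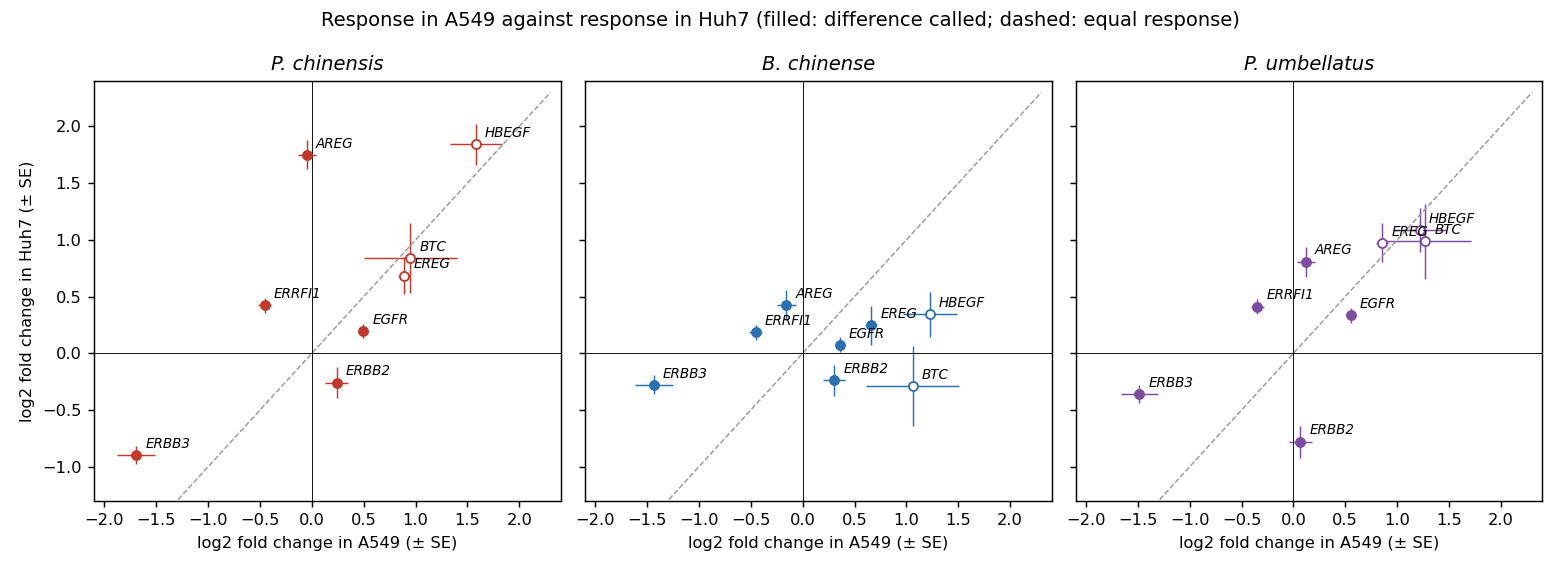
Each panel sets a member's log2 fold change in A549 cells (horizontal) against that in Huh7 cells (vertical) for 1 extract, with standard errors as bars and filled points where the interaction passed the test. AREG and ERRFI1 lie above the dashed line of equal response in all 3 panels, and HBEGF lies close to it with P. chinensis and P. umbellatus.

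P. chinensis was also set directly against the other extracts. In A549 cells edgeR called 0 of 9 members against B. chinense, where 1.45% of all genes were changed, with 2 members at an unadjusted p below 0.05 (EGFR and EREG), 1 call by DESeq2 (and 3.34% of all genes) and 0 by voom (and 1.11%). The EREG difference was 0.23 ± 0.06 (adjusted p = 0.0603) and passed the test without P. chinensis replicate 2 (adjusted p = 0.0425). Against P. umbellatus edgeR again called 0 of 9, where 3.01% of all genes were changed, with TGFA at an unadjusted p below 0.05, and DESeq2 and voom each called 1 (and 4.76% and 3.36% of all genes). TGFA was at -0.32 ± 0.08 (adjusted p = 0.0535), and passed the test without B. chinense replicate 3 (adjusted p = 0.0491) or control replicate 2 (0.0388). In Huh7 cells 3 of 8 members were higher and 1 lower with P. chinensis than with B. chinense, where 7.81% of all genes were changed. AREG was higher by 1.32 ± 0.13 (adjusted p = 9.33e-05) and HBEGF by 1.5 ± 0.19 (adjusted p = 0.000488), and ERBB3 was lower, at -0.62 ± 0.08 (adjusted p = 0.000837). ERRFI1 was higher by 0.24 ± 0.07 (adjusted p = 0.0484), a call lost in 9 of 12 fits that each left out 1 Huh7 library (adjusted p up to 0.187). Against P. umbellatus 3 of 8 were higher and 1 lower, where 35.4% of all genes were changed. AREG was higher by 0.94 ± 0.13 (adjusted p = 0.000453), HBEGF by 0.75 ± 0.18 (adjusted p = 0.00755) and ERBB2 by 0.52 ± 0.14 (adjusted p = 0.0136), and ERBB3 was lower, at -0.54 ± 0.08 (adjusted p = 0.00084). The ERBB2 call was lost in a fit of the 2 groups alone (adjusted p = 0.0764), and the ERBB2 value ranged from 0.34 to 0.67 over 20 alternatives. Without P. umbellatus replicate 2, 5 members passed the test in each of these Huh7 comparisons, where 20.4% and 32.8% of all genes did, with BTC added against B. chinense (adjusted p = 0.0337) and EGFR against P. umbellatus (adjusted p = 0.0424).

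The genes whose log2 CPM over the 12 libraries of a line ran most like a member's were found for the member with the smallest adjusted p under P. chinensis in that line. For EREG in A549 cells they included ITGA2, the alpha 2 integrin that binds collagen (Pearson r = 0.992). For AREG in Huh7 cells they were BIRC3, an inhibitor of apoptosis (r = 0.980), BACH2, a transcription factor (r = 0.977), and PRSS23, a serine protease (r = 0.977). The points share libraries and the 4 treatment groups, and the values are a description.

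The other genes of the pathway were taken from 7 lists of 77 genes in all, of which 73 were tested in each line. These lists, too, were chosen with earlier results of these data known. In A549 cells 20 rose and 6 fell with P. chinensis (35.6% of those tested), 18 rose and 5 fell with B. chinense (31.5%), and 19 rose and 2 fell with P. umbellatus (28.8%), shares close to those of all genes given above. In Huh7 cells 7 rose and 14 fell with P. chinensis (28.8%, against 20.9% of all genes), 2 rose and 1 fell with B. chinense (4.11%, against 1.28%), and 19 rose and 15 fell with P. umbellatus (46.6%, against 37.0%). Without P. umbellatus replicate 2, 9 rose and 25 fell with P. chinensis (46.6%, against 34.8% of all genes in the same fit), 4 rose and 6 fell with B. chinense (13.7%, against 6.54%), and 22 rose and 14 fell with P. umbellatus (49.3%, against 32.8%).

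Of the other receptors and ligands, 5 of 7 are in the table. In A549 cells NRG1, a neuregulin that binds ERBB3, was the 1 of 5 that changed with each extract, where 32.8%, 28.1% and 28.2% of all genes did. It was at 313 ± 7.997 CPM (mean ± SD, n = 3) in control cells and rose by 0.77 ± 0.05 (adjusted p = 8.48e-08) with P. chinensis, by 0.65 ± 0.05 (adjusted p = 8.27e-07) with B. chinense and by 0.54 ± 0.05 (adjusted p = 4.27e-06) with P. umbellatus. NRG2, another neuregulin, was highest with P. umbellatus, at 0.73 ± 0.26 (adjusted p = 0.0506). In Huh7 cells EGF, the founding ligand, fell from 28.0 ± 1.54 CPM to 16.1 ± 0.698 CPM after P. chinensis, to 16.8 ± 0.950 CPM after B. chinense and to 21.8 ± 1.59 CPM after P. umbellatus. The log2 fold changes were -0.74 ± 0.10 (adjusted p = 0.000241), -0.72 ± 0.10 (adjusted p = 0.0042) and -0.31 ± 0.10 (adjusted p = 0.0301). NRG1 rose there by 0.56 ± 0.16 (adjusted p = 0.0181) with P. umbellatus.

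Ligand shedding is the list of 6 genes for the proteases that free ligands and their regulators. In A549 cells 3, 2 and 2 of the 6 rose with the 3 extracts (P. chinensis first, then B. chinense, then P. umbellatus, as in all lists of 3 values here and below), and the median log2 fold changes were 0.49, 0.40 and 0.41, against 0.014, -0.002 and -0.012 over all genes. None fell, and 32.8%, 28.1% and 28.2% of all genes were changed in either direction. RHBDF2, which carries ADAM17 to the cell surface, rose from 69.0 ± 7.65 CPM by 0.92 ± 0.07 (adjusted p = 2.54e-07), 0.76 ± 0.07 (adjusted p = 3.28e-06) and 0.69 ± 0.07 (adjusted p = 6.42e-06). RHBDF1, its relative, rose by 1.16 ± 0.31 (adjusted p = 0.00982), 1.52 ± 0.31 (adjusted p = 0.00189) and 1.298 ± 0.31 (adjusted p = 0.00533) from a low 9.47 ± 5.51 CPM. In Huh7 cells 2, 1 and 4 of the 6 rose and none fell, where 20.9%, 1.28% and 37.0% of all genes were changed. TIMP3, which inhibits ADAM17, rose by 0.79 ± 0.07 (adjusted p = 9.67e-06), 0.47 ± 0.07 (adjusted p = 0.00633) and 0.61 ± 0.07 (adjusted p = 0.000321) from 70.0 ± 1.76 CPM. ADAM17 itself rose by 0.38 ± 0.08 (adjusted p = 0.00554) with P. chinensis and by 0.46 ± 0.08 (adjusted p = 0.00227) with P. umbellatus.

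Among receptor turnover and brakes, 3, 2 and 2 of 12 rose in A549 cells and none fell, where 32.8%, 28.1% and 28.2% of all genes were changed. PTPN1, a phosphatase of the receptor, rose by 0.35 ± 0.06 (adjusted p = 0.00079), 0.29 ± 0.06 (adjusted p = 0.00362) and 0.35 ± 0.06 (adjusted p = 0.0009), and PTPRJ, another phosphatase, by 0.31 ± 0.05 (adjusted p = 0.000252) with P. chinensis and by 0.19 ± 0.05 (adjusted p = 0.00969) with B. chinense. In Huh7 cells LRIG1, which promotes receptor degradation, fell with P. chinensis, at -0.76 ± 0.15 (adjusted p = 0.00288), and with P. umbellatus, at -0.62 ± 0.15 (adjusted p = 0.00871). USP8, which removes ubiquitin from the receptor, rose by 0.49 ± 0.08 (adjusted p = 0.00169) with P. umbellatus. Among receptor adaptors, SHC1 rose in A549 cells by 0.45 ± 0.05 (adjusted p = 3.03e-06), 0.57 ± 0.05 (adjusted p = 5.06e-07) and 0.56 ± 0.05 (adjusted p = 5.38e-07), while GRB7, an adaptor of ERBB2 and ERBB3, fell, at -1.07 ± 0.17 (adjusted p = 0.000252), -0.83 ± 0.17 (adjusted p = 0.00231) and -0.75 ± 0.17 (adjusted p = 0.00366). SOS1, the exchange factor that loads RAS, rose in Huh7 cells by 0.91 ± 0.09 (adjusted p = 3.7e-05), 0.59 ± 0.09 (adjusted p = 0.0101) and 1.16 ± 0.09 (adjusted p = 4.2e-05), and GAB1, a docking protein, by 0.47 ± 0.08 (adjusted p = 0.00213) with P. umbellatus.

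Few genes of the RAS to ERK cascade changed in A549 cells, 1 of 11 with each extract, where 32.8%, 28.1% and 28.2% of all genes did. MAP2K2, the kinase MEK2, rose by 0.29 ± 0.06 (adjusted p = 0.00341) with B. chinense and by 0.32 ± 0.06 (adjusted p = 0.00143) with P. umbellatus. In Huh7 cells 2 of 11 fell with P. chinensis, where 20.9% of all genes were changed, and 2 rose and 5 fell with P. umbellatus, where 37.0% were. MAPK3, the kinase ERK1, fell with these extracts, at -0.46 ± 0.14 (adjusted p = 0.0355) and -1.03 ± 0.15 (adjusted p = 0.000937). In the PI3K and AKT arm PIK3CD, a catalytic subunit of PI3K, rose in A549 cells by 0.90 ± 0.15 (adjusted p = 0.00027), 0.91 ± 0.15 (adjusted p = 0.000351) and 0.93 ± 0.15 (adjusted p = 0.000252), and PIK3R3, a regulatory subunit, by 1.02 ± 0.25 (adjusted p = 0.00594), 1.27 ± 0.25 (adjusted p = 0.00158) and 0.74 ± 0.25 (adjusted p = 0.039). In Huh7 cells PIK3R2, another regulatory subunit, fell with P. chinensis, at -0.79 ± 0.14 (adjusted p = 0.00176), and with P. umbellatus, at -0.65 ± 0.14 (adjusted p = 0.00511). PIK3CA, another catalytic subunit, rose by 0.66 ± 0.16 (adjusted p = 0.00975) with P. umbellatus, and by 0.40 (adjusted p = 0.00969) without replicate 2.

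The last list holds ERK targets and feedback genes. In A549 cells 8 of 16 rose and 2 fell with P. chinensis, 6 rose and 3 fell with B. chinense, and 8 rose and 1 fell with P. umbellatus. Of all genes, 32.8%, 28.1% and 28.2% were changed there. EGR1, an immediate early transcription factor, stood at 1.46 ± 0.241 CPM in A549 control cells and at 20.2 ± 8.54 with P. chinensis, a rise by 3.75 ± 0.35 (adjusted p = 1.37e-06). It rose by 1.41 ± 0.38 (adjusted p = 0.0116) with B. chinense and was at 0.68 ± 0.38 (adjusted p = 0.219) with P. umbellatus. FOSL1, an AP-1 subunit made more stable by ERK, rose by 1.32 ± 0.13 (adjusted p = 2.58e-06), 1.04 ± 0.13 (adjusted p = 4.28e-05) and 1.11 ± 0.13 (adjusted p = 1.98e-05). In Huh7 cells 4 of 16 rose and 7 fell with P. chinensis, where 20.9% of all genes were changed. With P. umbellatus 2 rose and 4 fell, near the 37.0% of all genes changed. EGR1 rose by 1.37 ± 0.16 (adjusted p = 9.22e-05) and 0.57 ± 0.16 (adjusted p = 0.0188) with P. chinensis and P. umbellatus, while SPRY1, a feedback inhibitor of the cascade, fell with P. chinensis, at -1.08 ± 0.09 (adjusted p = 9.67e-06), from 43.9 ± 1.87 to 19.95 ± 1.23 CPM.

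**Figure D5:**
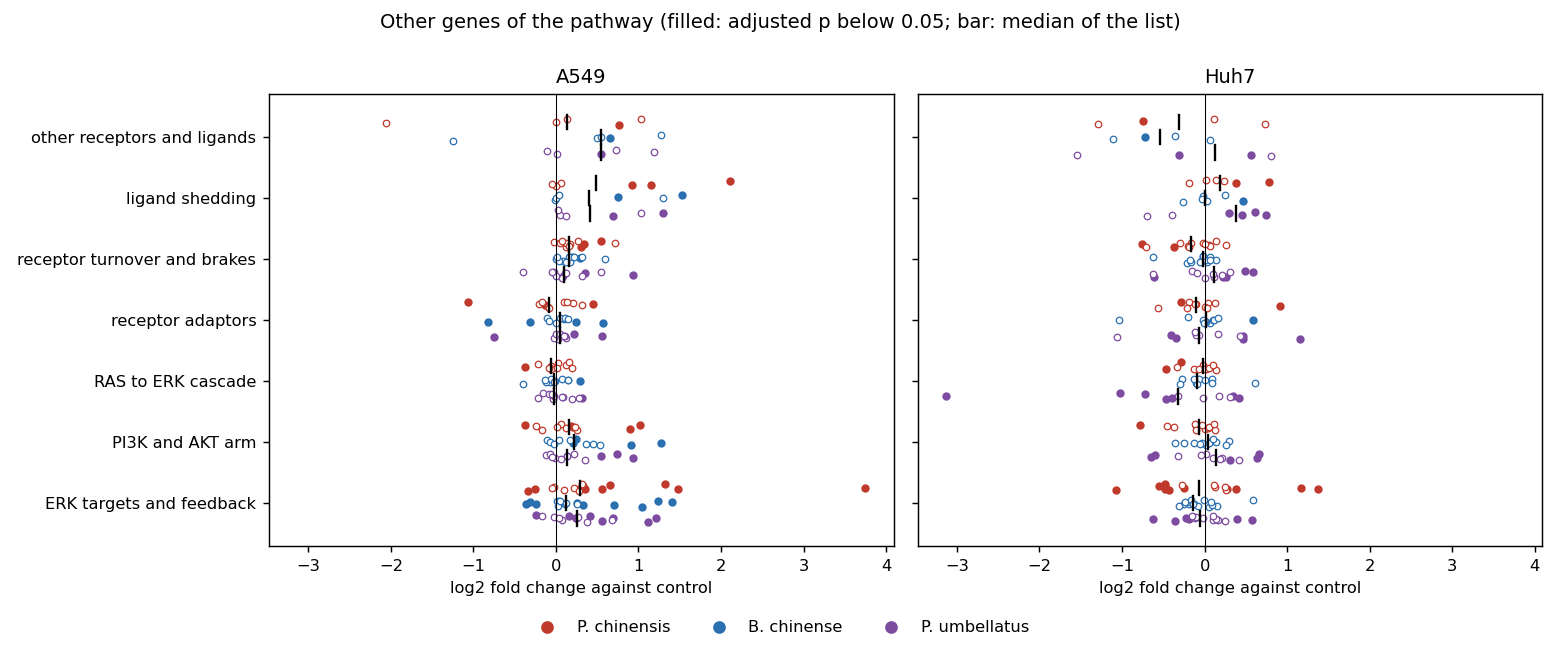
Each point is 1 gene's log2 fold change against the control of its line, grouped by list and coloured by extract, filled where the adjusted p was below 0.05, with a bar at the list's median. EGR1 with P. chinensis in A549 cells lies at 3.75, and with B. chinense in Huh7 cells only 3 of 73 points are filled.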

How the data were processed

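RNA was sequenced from 24 libraries of A549 and Huh7 cells, 3 per group, from a stranded total RNA kit with removal of ribosomal RNA. The authors estimated counts with kallisto (version not given in the sources used here) against Ensembl cDNA of GRCh38.p13, kept protein-coding genes with a mean above 5, and deposited unscaled estimated counts, one whole number per gene and library. How transcripts were summed and rounded is not given in the sources used here. The deposited table holds 14585 rows, of which 1 without a protein-coding type in GENCODE was left out.

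Groups came from the treatment and cell line labels. For each line, genes with a mean above 5 counts over its 12 libraries (13633 in A549, 13875 in Huh7) were normalized by TMM and fitted in edgeR 4.0.16 (R 4.3.3) with 1 mean for every group, prior count 0.125. Two-sided quasi-likelihood tests were adjusted by the Benjamini-Hochberg method over all genes tested, with a threshold of 0.05. Standard errors were computed back from these tests, as the size of the log2 fold change over the square root of the F statistic. Interactions were fitted on all 24 libraries and 12924 genes, and the control groups of the lines on 14584 genes. CPM are TMM-scaled. Per-length values use the Ensembl canonical transcript, and motifs were searched in RefSeq windows. Replicates differed by more than sampling noise. The members and lists were chosen with earlier results of these data known. The named genes are the members, the 2 genes of each pathway list with the smallest adjusted p in each line, and the 3 genes that ran most like EREG in A549 and AREG in Huh7 cells. Some of the named genes are not reported here. The pathway counts without Huh7 P. umbellatus replicate 2 were added after seeing the data. The alternatives were DESeq2 1.42.0, RLE and upper quartile normalization, no filter, filterByExpr, only the groups compared, voom with sample quality weights (limma 3.58.1), the replicate number as a block, and leaving out each replicate. The scripts were tested on simulated data. Counts set the precision, and limits from a count of 0 cover counting error only.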

Additional observations from a re-analysis of the deposited data

Results flagged for a closer look

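The responses that differed between the lines by the interaction test (A549 minus Huh7, log2, edgeR) are gathered here. With P. chinensis these were EGFR at 0.35, ERBB2 at 0.55, ERBB3 at -0.74, AREG at -1.75 and ERRFI1 at -0.82. With B. chinense they were EGFR at 0.32, ERBB2 at 0.58, ERBB3 at -1.11, AREG at -0.54, EREG at 0.46 and ERRFI1 at -0.60. With P. umbellatus they were EGFR at 0.30, ERBB2 at 0.93, ERBB3 at -1.01, AREG at -0.61 and ERRFI1 at -0.68. The 3 contrasts share the control libraries of both lines. Those of these calls that were lost under another setting are named above.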

How the results depend on the processing

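Of 117 single values of members, 64 passed the test, and none of these changed direction under the 8 alternatives or when any 1 of 24 libraries was left out. A call was lost or gained somewhere for 31 values. For Huh7 B. chinense against control, where edgeR called 0 members, DESeq2 called 1, a fit of only the groups compared 2 and voom 4, and leaving out 1 library gave 0 to 3, with 3 without Huh7 P. umbellatus replicate 2. The share of all genes called was 3.71% with DESeq2, 8.10% with only the groups compared, 8.86% with voom and 6.54% without that replicate, against 1.28%. For Huh7 P. umbellatus a fit of only the groups compared called 5 instead of 8, where 9.17% of all genes were changed instead of 37.0%. For P. chinensis against B. chinense in A549 cells DESeq2 called 1 instead of 0 (3.34% of all genes instead of 1.45%), and leaving out a library gave 0 to 1. For P. chinensis against P. umbellatus in A549 cells DESeq2, RLE normalization, filterByExpr, only the groups compared and voom each called 1 instead of 0, and leaving out a library gave 0 to 1. The shares of all genes in these fits were 4.76%, 3.18%, 3.43%, 1.67% and 3.36% in that order, against 3.01%. The B. chinense interaction had 3 to 8 calls when a library was left out, against 6. The cause was not tested. All other counts of members called stayed within 1.5 times. Counts of the other pathway genes did not: without Huh7 P. umbellatus replicate 2 they rose with P. chinensis and B. chinense in Huh7 cells, as did the share of all genes called, with the values given above. No shared shift of replicates with the same number was seen, as the correlation of deviations was over 0.1 in 0 of 36 pairs (-0.063 to 0.049). This cannot tell whether such replicates were handled together. A replicate block left the counts at 6, 6, 6, 6, 0 and 7 members in the order of the 6 comparisons with control (A549 then Huh7, each P. chinensis, B. chinense, P. umbellatus), lost 6 single calls and gained none. The shares of all genes called in the same order were 31.3%, 26.3%, 26.6%, 18.9%, 0.836% and 35.5%. Low counts limit BTC, HBEGF and, in Huh7 cells, EREG, and TGFA could not be tested there.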
